A study of Rattus norvegicus with 4 samples.

Results

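Genes of lysosomal hydrolases, their helper proteins, lysosomal membrane proteins and the receptors that sort enzymes to the lysosome were examined in cells selected with the AA4 antibody from the pancreatic lymph node. The list holds 32 genes and leaves out most cathepsins and the proton pump. Of these, 30 had at least 1 probe set annotated with that gene symbol alone (43 probe sets in all), out of 14217 such genes on the array. Each of the 30 was represented by its brightest tested probe set, and all 30 passed the filter on dim signals, as did 9349 genes in all. Sgsh and Npc1 were not analysed here. No main probe set of a member passed the filter through 1 pool alone, and 29 of the 30 lay above it on all 4 arrays.

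The cells came from female BioBreeding rats at day 65, and the labels call them mast cells. In one group the rats were DRlyp/lyp, which the labels call diabetic prone; the lyp mutation lies in Gimap5, and such rats are lymphopenic and prone to autoimmune diabetes. In the other group they were DR+/+, which carry the normal gene and are diabetic resistant. For each group, RNA from 8 animals went into 1 pool, of which 2 independent amplifications were each hybridised to an Affymetrix Rat Genome 230 2.0 array. The p-values below rest on repeat amplifications of 1 pool per strain, and the spread between animals cannot be had from 4 arrays.

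Lysosomes are the acidic compartment in which cells break down sugar chains, lipids and proteins, and in mast cells the secretory granules share many of their contents. Most soluble enzymes are tagged with mannose 6-phosphate in the Golgi and carried to the compartment by mannose 6-phosphate receptors. Several lipid-degrading enzymes work only with a small activator protein that lifts the lipid out of the membrane. Macrophages are rich in the same genes because they digest what they take up.

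Many lysosomal genes share a promoter motif that the transcription factor TFEB and its relatives Tfe3 and Mitf recognise, built around the letters CACGTG. The promoters of 25 of the 32 members were found in the RefSeq promoter table of the GRCr8 build, each running from 250 bases before to 50 after the start used there. Not in that table were Hexa, Arsa, Arsb, Asah1, Ppt1, Psap and M6pr. The longer form TCACGTGA, which contains CACGTG and reads the same on both strands, was present in 4 of the 25 (Galc, Igf2r, Lamp1 and Mcoln1) and in 0.896% of the 27457 genes of the table. The form TCACGTG, on either strand, was present in 7 of the 25, which adds Gaa, Glb1 and Sgsh, and in 3.58% of the genes of the table. CACGTG alone was in the same 7 and in 7.08% of all. Among the 19005 protein-coding genes of the table the shares were 1.14% for TCACGTGA, 4.11% for TCACGTG and 7.69% for CACGTG. The matches are shown because they fall on members of different classes, whose signals are compared below. Capitals mark the longest form found, and all are written 5′ to 3′ on the gene's strand.
Igf2r (chr1:50526726-50526785, plus strand, first capital 126 bases before the start): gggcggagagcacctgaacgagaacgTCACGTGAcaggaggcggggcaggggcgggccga
Galc (chr6:123245562-123245591, minus strand, 21 bases before the start): gggtgccacagTCACGTGAcccgcacaatg
Lamp1 (chr16:83075096-83075155, minus strand, 66 bases before the start): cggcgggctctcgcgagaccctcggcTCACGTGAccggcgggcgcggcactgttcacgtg
Mcoln1 (chr12:6358250-6358279, plus strand, first capital at base 4 after the start): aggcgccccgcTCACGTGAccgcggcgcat
Glb1 (chr8:122963591-122963649, plus strand, 101 bases before the start): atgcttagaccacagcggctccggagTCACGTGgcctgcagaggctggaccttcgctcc
Gaa (chr10:105028262-105028320, plus strand, 67 bases before the start): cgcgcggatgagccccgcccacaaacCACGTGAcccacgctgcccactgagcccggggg

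The Lamp1 promoter held CACGTG 5 times and those of Igf2r and Mcoln1 2 times each. Among the 6 measured genes with a match, Igf2r (by its brighter probe set alone) and Glb1 were lower in the DRlyp/lyp pool. Galc, Lamp1, Mcoln1 and Gaa did not pass the threshold. Of all genes tested, 42.0% were called in either direction and 21.1% were lower. Beside those shares, 2 calls among 6 genes do not set these genes apart. A match describes letters in a window, and binding was not measured.

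Depth is not defined for arrays, and the number of arrays limits the precision. The deposited values had the same 2% trimmed mean, 150.1, on all 4 arrays. Of 10 mast cell markers listed, 8 were tested. Kit lay below the filter of 28.3 on all arrays, and Gata2 was above it on 1 array at most. Tpsab1 and Slc18a2 were tested although each lay below it on 1 array. Genes of T cells, B cells, plasma cells and macrophages were measured in both pools. Exocrine pancreas genes were measured in the DRlyp/lyp pool, and 4 of the 7 did not reach the filter on either array of the DR+/+ pool. The share of each cell type is not known here, and fewer cells of a type cannot be told apart from less RNA per cell. The 3′ minus 5′ log2 signal of control transcripts grows as the amplified RNA gets shorter. It was higher in the DRlyp/lyp pool by 1.44 for beta-actin and by 0.81 for GAPDH, without overlap, while the arrays overlapped for hexokinase (3.60 and 1.56 against -1.05 and 3.32). Its part in the results below was not tested.

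More lysosomal genes fell than rose in DRlyp/lyp. With limma's adjusted p held to 0.05, 13 of the 30 were lower, 6 were higher and 11 did not pass the threshold. Among all 9349 genes tested, 21.1% were lower, 20.9% higher and 42.0% called in either direction, against 43.3%, 20.0% and 63.3% of the members. The median log2 difference, DRlyp/lyp minus DR+/+, was -0.23 over the members and 0.0007 over all genes. With the filter raised to the 75th percentile of signal, 28 members were tested and 20 of them called (8 higher, 12 lower), beside 55.3% of all genes then tested (27.0% higher, 28.4% lower). The 2 arrays of one pool did not overlap with those of the other for 25 of the 30 members, of which 17 were below and 8 above, while 71.9% of all genes tested did not overlap (36.4% below, 35.4% above). At least 2-fold lower were 4 members (Psap, Asah1, Neu1 and Igf2r), and 0 members were called at least 2-fold higher (limma), against 4.60% and 5.11% of all genes and 9.71% in either direction. The largest called rise was 1.65-fold, in Laptm5 by its brightest probe set, while its other tested set was called lower. Of the 6 higher members, Laptm5, Lamp2 and Gla each had a second tested probe set of opposite sign.

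**Figure D1:**
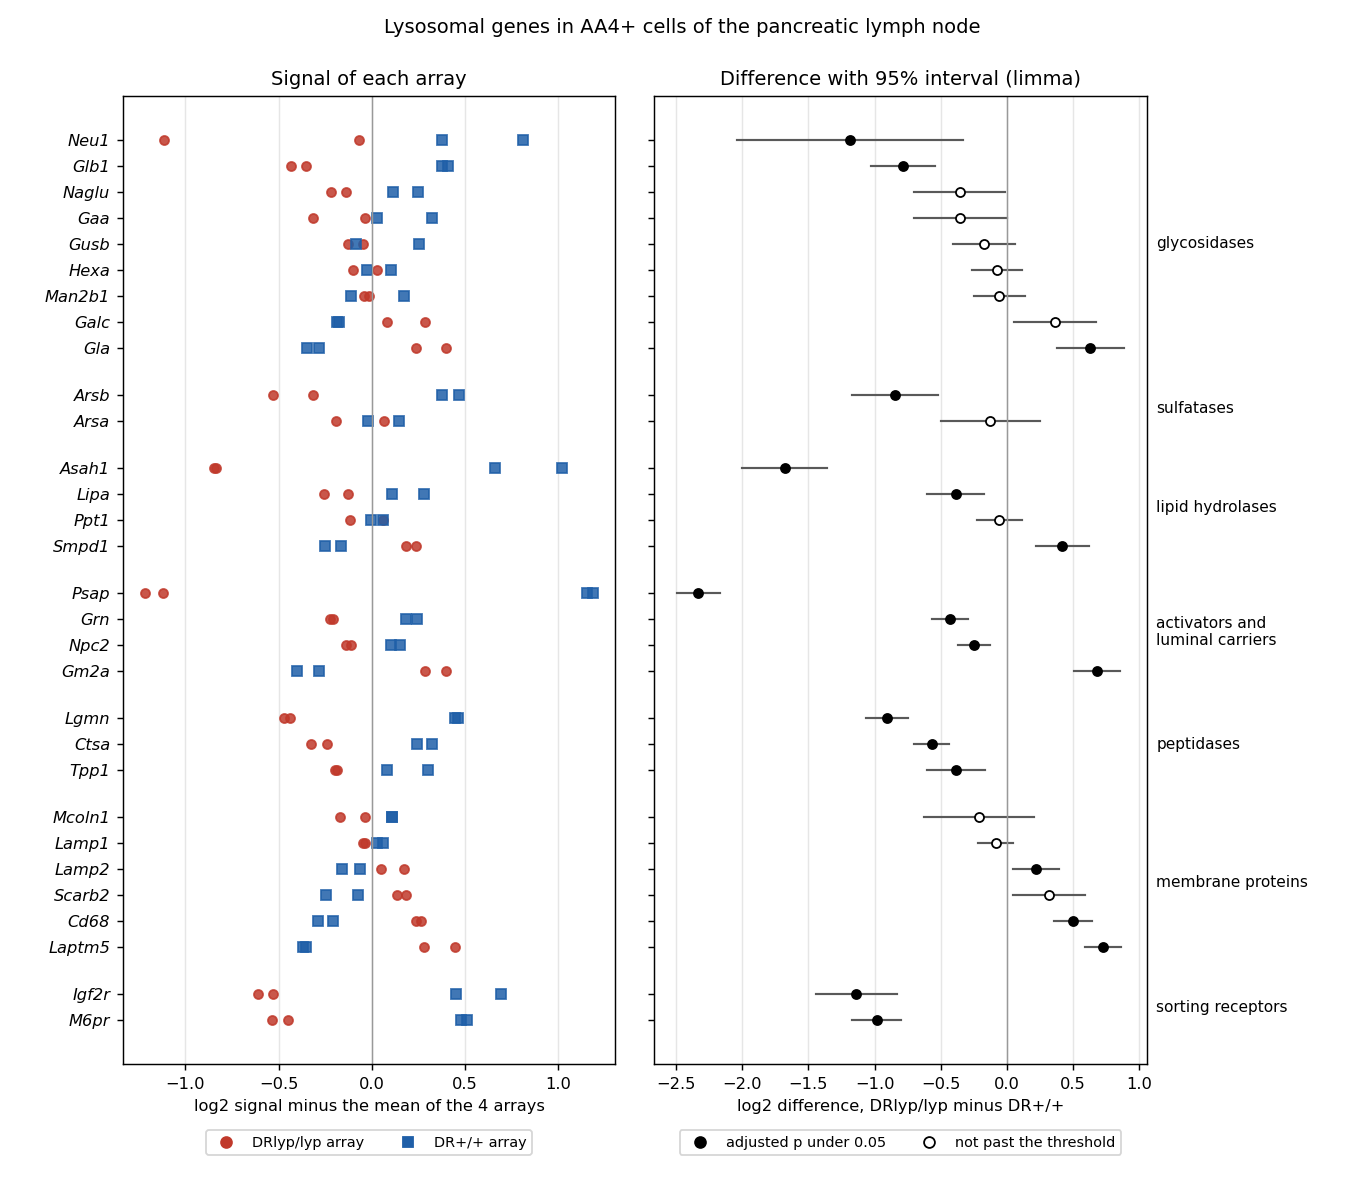
The left panel plots, for each of the 30 genes, the log2 signal of each of the 4 arrays minus the mean of the 4 (circles DRlyp/lyp, squares DR+/+), and the right panel the log2 difference with its 95% interval from limma, filled where the adjusted p is under 0.05. Psap and Asah1 stand apart at -2.33 and -1.68, and 3 of the 6 membrane proteins lie to the right with filled points.

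The enzymes and helpers inside the lysosome and the proteins of its membrane differed in their counts. Of the 22 luminal proteins tested, 11 were lower and 3 higher, with a median log2 difference of -0.35. Of the 6 membrane proteins, 0 were lower by their brightest probe set and 3 were higher, with a median of 0.27, although second probe sets of Lamp2 and Laptm5 were lower and the membrane median was 0.04 with the mean of each gene's probe sets. Both sorting receptors were lower. Called in either direction were 63.6% of the luminal and 50% of the membrane proteins, beside 42.0% of all genes. Of all genes, 21.1% were lower and 20.9% higher. The difference between classes was not tested, and the counts describe a list chosen with earlier results of these data known. With each array centred on its median, the median over all probe sets moved to -0.12, and the members then counted 4 higher and 15 lower with a median of -0.34. That centring also moved the share of higher calls over all probe sets from 49.3% to 35.9%.

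Of the 4 activator and carrier proteins 3 were lower and 1 higher, with a median log2 difference of -0.34. Of all genes, 21.1% were lower and 20.9% higher. Psap encodes the precursor of the saposins, which present sphingolipids to their hydrolases. Its signal was 660.7 and 618.7 on the DRlyp/lyp arrays and 3261.3 and 3189.0 on the DR+/+ arrays (probe set 1369929_at). Both DRlyp/lyp arrays lay far below both DR+/+ arrays, and the arrays of each pool differed little. The signal was 5.04-fold lower in the DRlyp/lyp pool (log2 difference -2.33, 95% interval -2.50 to -2.17, adjusted p = 1.42e-09, limma), and this was 1 of the 4 calls that held under all 14 alternatives tried. Psap is measured by this 1 probe set alone.

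Gm2a went the other way. It encodes the GM2 activator, which delivers ganglioside to hexosaminidase. Its signal was 1558.3 and 1684.2 on the DRlyp/lyp arrays and 969.6 and 1051.1 on the DR+/+ arrays, without overlap. That is 1.60-fold higher (log2 difference 0.68, 95% interval 0.51 to 0.86, adjusted p = 5.81e-05). Hexa, the alpha subunit of the enzyme that Gm2a serves, read 1048.2 and 962.0 against 1104.0 and 1011.0, and its arrays overlapped. Its log2 difference was -0.07 with a 95% interval from -0.26 to 0.12 (adjusted p = 0.542), so a change of the size seen for Gm2a lies outside the interval.

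Grn and Npc2 were lower by smaller amounts. Grn encodes progranulin, a secreted and lysosomal glycoprotein, and read 2047.8 and 2025.8 against 2684.3 and 2796.8. The arrays did not overlap, and the signal was 1.34-fold lower (adjusted p = 0.000227). Npc2, which binds cholesterol in the lumen and hands it on for export, read 3122.8 and 3055.8 against 3617.1 and 3735.1. It was 1.19-fold lower (adjusted p = 0.0036).

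Among the lipid hydrolases, acid ceramidase fell and acid sphingomyelinase rose. Asah1 encodes acid ceramidase, which splits ceramide into sphingosine and fatty acid. Its brighter probe set read 168.9 and 167.3 on the DRlyp/lyp arrays and 610.0 and 475.3 on the DR+/+ arrays. The dimmer one read 37.1 and 48.7 against 223.0 and 210.6. Both sets showed the DRlyp/lyp arrays well below the DR+/+ arrays, with no overlap. The brighter was 3.20-fold lower (log2 difference -1.68, 95% interval -2.00 to -1.36, adjusted p = 6.00e-06) and the dimmer 5.10-fold lower (adjusted p = 1.15e-05). The call held under all 14 alternatives.

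Smpd1 encodes acid sphingomyelinase, which makes ceramide from sphingomyelin. It read 838.4 and 872.0 in the DRlyp/lyp pool against 621.4 and 658.7. The arrays did not overlap, and the signal was 1.34-fold higher (log2 difference 0.42, adjusted p = 0.00369). Dropping DRlyp/lyp replicate 2 ended the call (0.39, adjusted p = 0.0622), as did the fit with each array centred on its median (0.31, adjusted p = 0.0546). The call of Smpd1 also ended with no filter, without the intensity trend and against a 1.5-fold difference. Asah1 and Smpd1 thus differed in opposite directions between the pools, each against its own spread, Smpd1 with these limits.

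Lipa and Ppt1 differed less. Lipa, the acid lipase that hydrolyses cholesteryl esters and triglycerides, read 650.1 and 711.2 against 944.0 and 838.0. It was 1.31-fold lower (adjusted p = 0.00849), and the adjusted p became 0.117 when DRlyp/lyp replicate 1 was left out and 0.0535 when DR+/+ replicate 1 was. Ppt1, a thioesterase that removes palmitate from proteins, read 1712.5 and 1514.5 against 1709.6 and 1638.5. Its arrays overlapped, and the log2 difference was -0.06 with a 95% interval from -0.23 to 0.12 (adjusted p = 0.609).

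Of the 9 glycosidases, 2 were lower, 1 was higher and 6 did not pass the threshold. The 33.3% called was no more than the 42.0% of all genes, and the 22.2% lower was close to the 21.1% of all genes. Their median log2 difference was -0.17, and -0.29 without DR+/+ replicate 2. Glb1, the acid beta-galactosidase, read 320.1 and 338.8 in the DRlyp/lyp pool against 560.3 and 573.5. The arrays of each pool lay close together and those of the pools apart. The signal was 1.72-fold lower (log2 difference -0.78, adjusted p = 0.000207).

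Neu1, the lysosomal sialidase that removes terminal sialic acid, was dim. It read 39.4 and 19.1 against 53.8 and 72.5, so that DRlyp/lyp replicate 2 lay below the filter. The arrays did not overlap, and the signal was 2.28-fold lower with a wide 95% interval from -2.04 to -0.33 on the log2 scale (adjusted p = 0.0311). Leaving out any of 3 arrays ended the call: DRlyp/lyp replicate 2 (-0.66 remaining, adjusted p = 0.261), DR+/+ replicate 1 (-1.40 remaining, adjusted p = 0.0551) and, last, DR+/+ replicate 2 (-0.97 remaining, adjusted p = 0.161). A second probe set read 25.4 and 26.1 against 45.4 and 46.7, below the filter on both DRlyp/lyp arrays, and did not pass the threshold (adjusted p = 0.0744).

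Gla, the alpha-galactosidase A that trims globotriaosylceramide, rose by its brighter probe set. That set read 487.4 and 544.8 against 325.0 and 340.0, and was 1.55-fold higher (adjusted p = 0.00124). A dimmer set read 70.2 and 93.6 against 97.5 and 125.1, with a log2 difference of -0.45 (adjusted p = 0.16). The direction of Gla therefore depended on the probe set, and the mean of both sets differed by 0.09 (adjusted p = 0.681).

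The glycosidases that did not pass the threshold fell into those whose arrays separated and those whose arrays overlapped. Galc, which removes galactose from the myelin lipid galactosylceramide, read 274.7 and 315.6 against 229.4 and 227.9 (log2 difference 0.36, adjusted p = 0.0583). Gaa, which degrades glycogen, read 239.4 and 197.6 against 307.1 and 250.7 (-0.35, adjusted p = 0.104), with a dim second set at -1.13 (adjusted p = 0.117). Naglu, an enzyme of heparan sulfate breakdown, read 158.7 and 167.5 against 199.3 and 218.6 (-0.36, adjusted p = 0.0954). The arrays of these genes did not overlap. Galc passed the threshold with quantile normalization (adjusted p = 0.0407), Gaa without DR+/+ replicate 2 (adjusted p = 0.0495), and both Gaa and Naglu with arrays centred on the median (adjusted p = 0.0349 and 0.048).

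Gusb, Hexa and Man2b1 had overlapping arrays. Man2b1, the lysosomal alpha-mannosidase, read 1840.6 and 1876.9 against 1750.7 and 2132.0, with a 95% interval from -0.25 to 0.14. Gusb, the beta-glucuronidase, read 1036.0 and 979.0 against 1275.6 and 1009.2, where the first DR+/+ array stood above the rest. Leaving out DR+/+ replicate 2 brought Gusb past the threshold (-0.34, adjusted p = 0.0188).

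The 2 measured sulfatases gave 1 lower call, beside 21.1% of all genes lower. Arsb, which removes sulfate from dermatan and chondroitin sulfate, read 185.5 and 160.2 by its brighter probe set against 319.7 and 299.7. The arrays did not overlap, and this set was 1.80-fold lower (adjusted p = 0.000911). Its other set averaged 94.8 ± 7.35 against 99.3 ± 3.82 (SD, n = 2 arrays), and the arrays overlapped (log2 difference -0.07, adjusted p = 0.826). Arsa, which desulfates sulfatide, read 181.5 and 151.7 against 192.0 and 170.6, with overlapping arrays (log2 difference -0.13, 95% interval -0.50 to 0.25, adjusted p = 0.599). Its dimmer set, above the filter on the DR+/+ arrays alone, read 18.6 and 18.0 against 33.2 and 36.2 (adjusted p = 0.0935).

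All 3 peptidases of the list were lower, beside 21.1% of all genes. Lgmn encodes legumain, a protease that cuts after asparagine and processes other lysosomal enzymes. It read 1048.9 and 1026.6 in the DRlyp/lyp pool against 1955.2 and 1937.0, with narrow spreads and no overlap. The signal was 1.88-fold lower (log2 difference -0.91, 95% interval -1.06 to -0.75, adjusted p = 2.63e-06), and the call held under all 14 alternatives.

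Ctsa, the protective protein cathepsin A, read 2424.5 and 2574.6 against 3601.7 and 3810.8. The signal was 1.48-fold lower (adjusted p = 2.65e-05). Ctsa is known to form a complex with beta-galactosidase and the sialidase, and in these data the genes of all 3 partners (Ctsa, Glb1 and Neu1) were lower, Neu1 with the limits given above. Tpp1, an aminopeptidase that removes tripeptides, read 637.4 and 642.6 against 901.4 and 773.4. It was 1.30-fold lower (adjusted p = 0.0102), and leaving out 1 array raised the adjusted p to 0.0891 (DRlyp/lyp replicate 1), 0.0772 (DRlyp/lyp replicate 2) and 0.0596 (DR+/+ replicate 1).

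Membrane proteins rose where they were called by their brightest probe set. Cd68, a heavily glycosylated protein of macrophage and other phagocyte lysosomes, read 2512.5 and 2567.8 in the DRlyp/lyp pool against 1746.0 and 1846.1. The arrays did not overlap. The signal was 1.42-fold higher (log2 difference 0.50, 95% interval 0.36 to 0.64, adjusted p = 0.000108). In the macrophage marker list Mrc1 also rose (log2 difference 0.67, adjusted p = 0.00283, and 0.063 when DRlyp/lyp replicate 1 was left out), C1qa, C1qb, C1qc, Csf1r, Adgre1 and Slc40a1 fell, and Cd14 (-0.0045) and Cd163 (0.09) did not pass the threshold.

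Laptm5 and Lamp2 were each measured by 2 bright probe sets that went opposite ways. Laptm5, a membrane protein of haematopoietic cells that helps send immune receptors to the lysosome, read 5154.0 and 4596.9 against 2963.5 and 2927.9 by its brightest set, 1.65-fold higher (adjusted p = 5.24e-06). By the other set it read 1588.2 and 1307.6 against 1686.0 and 2087.2, 1.30-fold lower (adjusted p = 0.0164). Neither set had overlapping arrays, and the mean of the sets differed by 0.17 (adjusted p = 0.118). No direction can be given for Laptm5 as a gene.

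Lamp2, a main glycoprotein of the lysosomal membrane, has transcripts that differ in their last exon. One probe set, 1383080_at, read 1369.9 and 1493.2 against 1186.9 and 1267.8, 1.17-fold higher (adjusted p = 0.0449). The other, 1370010_at, read 898.5 and 946.9 against 1523.9 and 1479.0, 1.63-fold lower (adjusted p = 3.62e-05). Leaving out 1 array raised the first set's adjusted p to 0.0895 (DRlyp/lyp replicate 1), 0.319 (DRlyp/lyp replicate 2) and 0.159 (DR+/+ replicate 1), and with arrays centred or quantile normalized it was 0.467 or 0.0586. The mean of both sets was lower (log2 difference -0.24, adjusted p = 0.0276). Which transcript or which part of it each set covers was not analysed here, and the part of the 3′ to 5′ difference in this disagreement was not tested.

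**Figure D2:**
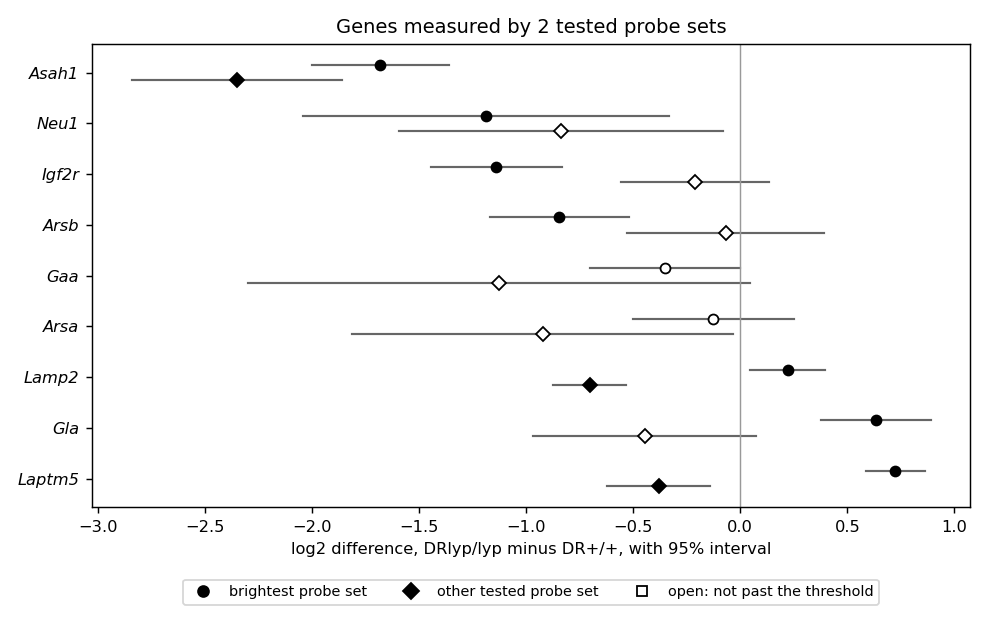
For the 9 genes with 2 tested probe sets, the plot gives the log2 difference of the brighter set (circle) and of the other (diamond) with 95% intervals from limma, filled where the adjusted p is under 0.05. The sets of Asah1 lie together on the left at -1.68 and -2.35, whereas those of Lamp2, Laptm5 and Gla lie on opposite sides of 0.

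The remaining membrane proteins did not pass the threshold. Lamp1, the other main membrane glycoprotein, read 2341.8 and 2327.6 against 2449.0 and 2502.9. Its arrays did not overlap, but the log2 difference was small, -0.08 with a 95% interval from -0.22 to 0.05 (adjusted p = 0.291). Scarb2, the receptor that carries glucocerebrosidase to the lysosome, read 405.3 and 392.2 against 339.2 and 301.5 (0.32, adjusted p = 0.06), and passed the threshold when DR+/+ replicate 1 was left out (0.40, adjusted p = 0.035) or with quantile normalization (adjusted p = 0.0404). Mcoln1, a lysosomal calcium channel, read 116.3 and 106.0 against 128.6 and 128.6 (-0.21, 95% interval -0.63 to 0.20, adjusted p = 0.407).

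Both mannose 6-phosphate receptors were lower, beside 21.1% of all genes. M6pr, the cation-dependent receptor, read 654.2 and 618.5 in the DRlyp/lyp pool against 1274.1 and 1244.3. The pools were well separated, and the signal was 1.98-fold lower (log2 difference -0.99, 95% interval -1.17 to -0.80, adjusted p = 5.73e-06), a call that held under all 14 alternatives. Igf2r, the cation-independent receptor that also binds insulin-like growth factor, read 194.2 and 184.2 against 452.7 and 383.4 by its brighter set, 2.20-fold lower (adjusted p = 7.50e-05). Its other set read 168.1 and 194.3 against 212.6 and 205.8, which did not overlap but did not pass the threshold (log2 difference -0.21, 95% interval -0.56 to 0.13, adjusted p = 0.317).

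Of the 9 members with 2 tested probe sets, the sets differed in sign for 3 (Gla, Lamp2 and Laptm5), shared sign and call for 3 (Asah1, Gaa and Arsa), and shared the sign but not the call for Arsb, Igf2r and Neu1. Over all 39 tested probe sets of members, 16 were lower, 6 higher and 17 not past the threshold, while 19.9% of all tested probe sets were lower and 19.3% higher. The other 4 probe sets, of Man2b1, Lgmn and Lamp1, were too dim to test.

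Lysosomal genes outside the list were also lower more often than higher. They are enzymes, sorting, membrane and regulatory genes, with Tfeb, Tfe3 and Mitf among them, and the 2 higher were Hgsnat and Mitf. Of 47 further genes listed, 37 had a probe set and 36 were tested, of which 13 were lower, 2 higher and 21 not past the threshold (41.7% called), with a median log2 difference of -0.15. The share called was that of all genes (42.0%), with 36.1% lower against 21.1% and 5.56% higher against 20.9%. The largest falls were in Dnase2, the acid DNase (88.7 ± 8.34 against 251 ± 6.58, SD, n = 2 arrays, 2.83-fold lower), in Lamp3, the membrane protein of mature dendritic cells (2.60-fold lower), and in Acp5, the tartrate-resistant acid phosphatase (1302 ± 6.79 against 3168 ± 9.26, 2.43-fold lower). The largest rise was in Hgsnat, the membrane acetyltransferase of heparan sulfate breakdown, which read 1071.3 and 973.3 against 277.1 and 211.9, 4.21-fold higher (adjusted p = 5.67e-07). A second Hgsnat probe set was also called higher. Fewer genes of this list were called without DRlyp/lyp replicate 1, without DRlyp/lyp replicate 2 or without DR+/+ replicate 1. Leaving out DR+/+ replicate 2 did not lower the count. Every one of these fits called fewer of all probe sets. Without DRlyp/lyp replicate 1 the log2 difference of Hgsnat was 2.01 and that of Lamp3 -1.25.

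Of the factors that bind the promoter motif, Tfeb had no clear direction, and Tfe3 and Mitf read higher with limits. Tfeb read 289.2 and 315.1 against 385.8 and 302.3, with overlapping arrays (log2 difference -0.18, 95% interval -0.50 to 0.14, adjusted p = 0.359). Without DR+/+ replicate 1 its log2 difference was -0.002. Tfe3 differed by 0.37 (adjusted p = 0.0757, and 0.0439 without DR+/+ replicate 2). Mitf, which is also known for its role in mast cells, read 256.3 and 234.6 against 148.4 and 200.4 (0.51, adjusted p = 0.0376), but the adjusted p was 0.239 when DRlyp/lyp replicate 1 was dropped, 0.13 for DRlyp/lyp replicate 2, 0.171 for DR+/+ replicate 1, and 0.108 with arrays centred on the median.

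**Figure D3:**
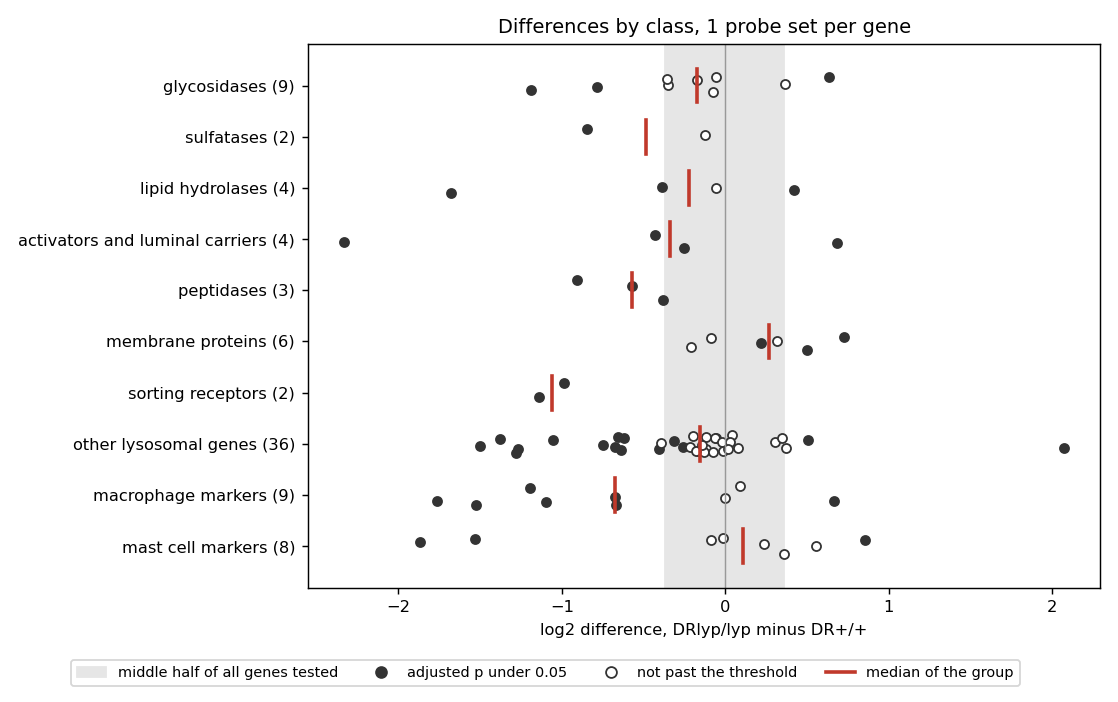
Each point is the log2 difference, DRlyp/lyp minus DR+/+, of 1 gene by its brightest tested probe set, filled where the adjusted p is under 0.05, in rows for the classes of the list, the 36 other lysosomal genes and the macrophage and mast cell markers. Red bars are medians, -1.06 for the sorting receptors and -0.68 for the macrophage markers, and the grey band runs over the interquartile range of all genes tested, -0.37 to 0.36.

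Most macrophage markers were lower in the pool in which more lysosomal genes were lower. Of 13 listed, 9 were measured and tested, of which 6 were lower, 1 (Mrc1) higher and 2 (Cd14 and Cd163) not past the threshold, with a median log2 difference of -0.68. That is 66.7% lower and 11.1% higher, beside 21.1% and 20.9% of all genes. The 6 lower were Csf1r, Adgre1, Slc40a1 and the C1q genes C1qa, C1qb and C1qc, which encode chains of 1 protein complex. The count lower was 6 without any 1 array, and 4 both with no filter and against a 1.5-fold difference, where 1 and 0 were higher. The summed signal of the 9 measured markers was 5353 and 5459 on the DRlyp/lyp arrays and 9505 and 10258 on the DR+/+ arrays. No measured marker was below the filter on all arrays. C1qa, a chain of complement C1q, read 1252.6 and 1288.4 against 2670.4 and 2768.7. The mast cell markers summed to 1177 and 1165 against 1163 and 1170, a sum led by Cpa3 and Cma1, which did not pass the threshold, and single members differed in both directions. The tryptase genes fell, Tpsb2 from 92.6 and 89.4 in DR+/+ to 34.4 and 28.7 (2.90-fold lower, adjusted p = 0.00119) and Tpsab1 by 3.65-fold (adjusted p = 0.000941), although these near-identical genes may share signal. Fcer1a, a chain of the IgE receptor, was higher by 0.85 on the log2 scale (adjusted p = 0.041), and the adjusted p was 0.213 without DR+/+ replicate 2, 0.186 without DRlyp/lyp replicate 1 and 0.185 without DRlyp/lyp replicate 2. In all, 3 of the 8 tested mast cell markers were called (37.5%), beside 42.0% of all genes. Dendritic cell markers summed to 1604 and 1447 against 871 and 908, with 3 of 4 higher, and T cell markers to 7456 and 7505 against 1466 and 1510. B cell markers summed to 9009 and 9626 against 10665 and 11683, with 1 of 4 lower. Plasma cell markers summed to 17245 and 17484 against 14451 and 14800, with 2 of 5 higher and 1 lower. Neutrophil markers summed to 2805 and 2902 against 1465.5 and 1768, with 2 of 3 higher. Exocrine pancreas genes summed to 7034 and 7321 against 162 and 155, and the DR+/+ sums include signal of Cpb1, Ctrb1, Pnliprp1 and Cpa1 that did not reach the filter. The part of these cell types in the lysosomal differences was not tested.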

How the data were processed

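The deposited intensity values, 1 per probe set and array on a linear scale, were made by the authors from Rat Genome 230 2.0 arrays; per the series' design text about 50 ng of pooled RNA was amplified in 2 cycles. Which program summarised and scaled the probes is not given in the sources used here. No rescaling was applied. Columns carry the sample names, groups come from the descriptions and replicate numbers from the titles.

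Of 31099 probe sets, 57 controls were left out. Values under 6.8, the 25th percentile of the pooled arrays, were set to it before the log2 step. Tests (limma 3.58.1 under R 4.3.3; lmFit, eBayes with intensity trend; 2 residual degrees of freedom; both sides) covered the 16068 probe sets that exceeded 28.3, the pooled median, on 2 or more arrays. P-values were Benjamini-Hochberg adjusted over all of them, with a threshold of 0.05, and 39.2% were called. Intervals are limma's 95% intervals, unadjusted. The fit was tested on data simulated with the spread between repeat arrays and far fewer changed probe sets than were called here. That test does not bear on the spread between animals.

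Symbols came from the platform annotation, from probe sets with 1 symbol. A gene was represented by its brightest tested set; levels of different genes were not compared. The members and lists were chosen with earlier results of these data known. All members are accounted for; of other lysosomal genes up to 3 called each way and Tfeb, Tfe3 and Mitf were named, and markers by brightness; C1qb, Slc40a1, Mrc1, Adgre1, Cd163, Cd14, Tpsb2, Tpsab1, Fcer1a, Ctrb1, Pnliprp1 and Cpa1 were named after their values were seen. Promoters are RefSeq's, GRCr8. Alternatives were other scaling, filters, floor, offset, block, arrays left out, no trend, a 1.5-fold null and the mean of probe sets. Figures used matplotlib 3.10.9.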

Additional observations from a re-analysis of the deposited data

How the results depend on the processing

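Among the 30 members, 4 calls (Psap, Asah1, Lgmn and M6pr) held under every alternative run, 1 called member (Lamp2) changed sign, and 5 of the 11 uncalled members passed in at least 1. Without a filter 7 members were called (1 higher, 6 lower), without the intensity trend 12 (8 lower) and against a 1.5-fold difference 5 (0 higher, 5 lower; limma); the same settings gave 7, 8 and 6 calls among the other lysosomal genes, and 1671, 4057 and 958 calls over all probe sets in place of 6302. Averaging the probe sets per gene, 3 members were higher, and the medians were -0.30 for all members and 0.044 for the membrane proteins. Centring arrays on the median shifted all genes down, and the medians became -0.34 for the members, -0.28 for glycosidases, -0.33 for lipid hydrolases and 0.16 for membrane proteins. Leaving out 1 array gave 15 to 20 calls (4 to 6 higher, 10 to 14 lower), a member median from -0.27 to -0.18, glycosidase medians from -0.29 to -0.13, lipid hydrolase medians from -0.28 to -0.16, and 9 to 17 calls among the other lysosomal genes. Across left-out arrays the uncalled Arsa ranged from -0.25 to 0.0041, Ppt1 from -0.14 to 0.033 (both positive without DRlyp/lyp replicate 2) and Man2b1 from -0.20 to 0.086 (positive without DR+/+ replicate 2), and Lamp2 turned to -0.24 with the mean of its sets. The causes were not tested. With the replicate number as a block 21 members were called (8 higher, 13 lower), and 7044 of all probe sets in place of 6302. Same-numbered arrays shared little (r = 0.0438 over 16068 probe sets). With so few arrays that value cannot show whether same-numbered arrays shared a step of the work. The dim signal of Neu1 limits its precision, and 4 member probe sets were too dim to test.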
